A study of Mus musculus with 12 samples.

Results

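The genes described here are 10 genes of plasma cells and of antibody secretion, chosen by symbol: Jchain, Mzb1, Prdm1, Xbp1, Sdc1, Tnfrsf17, Derl3, Fkbp11, Creld2 and Sec11c. All 10 were found among the 24982 gene symbols of the series. RNA was sequenced from B lymphocytes taken from spleens of mice 6 weeks old, in 3 groups of 4 libraries labelled as biological replicates. WT mice were of the C57BL/J6 background named in the series' design. Eμ-Myc mice carried a Myc transgene, which by its name is driven by the immunoglobulin heavy-chain enhancer active in the B lineage. Eμ-Myc; PRPS2 KO mice (called the knockout group here) carried the same transgene and lacked PRPS2, an enzyme of nucleotide precursor synthesis, so both transgenic groups share Myc overexpression and mice lacking PRPS2 without the transgene were not analysed here. How the B cells were isolated and whether libraries were pooled from several mice is not given in the sources used here.

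A plasma cell is the last stage of a B cell, in which the cell becomes a factory for secreted antibody. The repressor encoded by Prdm1 (Blimp-1) shuts down the B-cell programme, and the factor encoded by Xbp1, made active by splicing of its mRNA during the unfolded protein response, enlarges the endoplasmic reticulum (ER) and its folding and export machinery. Splenic B cells are mostly resting and hold little of this machinery, while marginal zone and B1 B cells hold more of it. Among the members, Jchain encodes the chain that joins IgM and IgA into polymers, and Mzb1 encodes an ER co-chaperone that helps assemble immunoglobulin. Sdc1 (CD138) and Tnfrsf17 (BCMA) are surface proteins of plasma cells, Derl3 belongs to the machinery that removes misfolded proteins from the ER, Fkbp11 and Creld2 act in protein folding in the ER, and Sec11c is a catalytic subunit of the signal peptidase that trims proteins as they enter the ER.

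The genes' promoters are given first, since they differ in some of the sequence elements searched for here. The RefSeq promoter table for GRCm38.p6, from 250 bases before to 50 after a start, held 8 of the 10 genes with 9 promoters; Mzb1 and Sec11c had no entry. The mm10 build named in the submitters' processing notes is the same assembly, GRCm38. A set of 4 motifs was searched on both strands: the E-box CACGTG bound by Myc and its partner, the ER stress element (CCAAT and CCACG with 9 bases of any kind between), the unfolded protein response element TGACGTGG and the octamer ATTTGCAT of immunoglobulin promoters. The short end CCACG of the ER stress element was counted too. Matches to the 4 motifs are in capitals below, on either strand. The Creld2 promoter (chr15:88819396-88819695, plus strand) and the Derl3 promoter (chr10:75893148-75893447, plus strand) are shown because each holds an ER stress element, that of Derl3 beside a separate E-box. One of the 2 Fkbp11 promoters (chr15:98727578-98727877, minus strand) is shown for its E-box, which begins 20 bases after its start. This window lies inside the annotated gene. The other Fkbp11 promoter (chr15:98728149-98728448, minus strand) spans the annotated start of the gene and held none of these motifs. The Jchain promoter (chr5:88527848-88528147, minus strand) is shown because Jchain varied most. It held none of these motifs, and the promoters of Prdm1, Sdc1, Tnfrsf17 and Xbp1 held none of the 4 either.
Creld2: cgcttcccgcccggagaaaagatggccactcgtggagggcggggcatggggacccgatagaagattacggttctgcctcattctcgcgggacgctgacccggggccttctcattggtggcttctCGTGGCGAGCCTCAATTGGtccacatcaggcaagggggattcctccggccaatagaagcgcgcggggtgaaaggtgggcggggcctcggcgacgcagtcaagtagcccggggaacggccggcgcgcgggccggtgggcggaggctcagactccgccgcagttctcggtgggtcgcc
Derl3: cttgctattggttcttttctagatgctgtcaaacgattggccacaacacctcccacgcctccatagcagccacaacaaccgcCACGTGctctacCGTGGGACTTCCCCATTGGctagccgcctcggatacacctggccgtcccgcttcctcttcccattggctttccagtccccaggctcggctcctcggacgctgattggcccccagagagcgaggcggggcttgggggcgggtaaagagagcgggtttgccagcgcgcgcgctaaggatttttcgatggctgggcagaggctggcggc
Fkbp11: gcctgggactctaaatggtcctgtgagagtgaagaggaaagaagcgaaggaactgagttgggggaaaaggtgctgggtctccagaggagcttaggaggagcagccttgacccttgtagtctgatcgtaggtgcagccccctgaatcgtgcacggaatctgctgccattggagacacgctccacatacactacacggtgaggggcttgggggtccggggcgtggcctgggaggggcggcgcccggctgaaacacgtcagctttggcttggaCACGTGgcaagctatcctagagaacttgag
Jchain: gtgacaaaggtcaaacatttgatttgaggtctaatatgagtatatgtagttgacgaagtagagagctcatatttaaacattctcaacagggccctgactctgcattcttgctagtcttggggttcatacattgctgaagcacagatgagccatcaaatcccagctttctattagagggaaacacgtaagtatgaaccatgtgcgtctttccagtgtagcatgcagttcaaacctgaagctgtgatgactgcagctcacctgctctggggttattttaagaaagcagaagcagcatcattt

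The ER stress element was present in 2 of the 9 member promoters, those of Creld2 and Derl3, and in 0.119% of the 32817 promoters of the table. The E-box was present in 2 of the 9, that of Derl3 and the Fkbp11 promoter shown, and in 7.15% of all promoters. The element TGACGTGG and the octamer were in 0 of the 9 and in 0.676% and 1.74% of all promoters. The end CCACG alone was in 5 of the 9 and in 32.8% of all promoters. A match describes these letters only. Of the genes shown, Fkbp11 and Creld2 rose in Eμ-Myc mice while Derl3 and Jchain had no called change, as given below.

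The deposited value of a gene in a library is its coverage, scaled here by 1 factor per library, and it is called scaled coverage. How many reads support a value is not known, and errors are SDs between libraries. The sums of coverage ran from 1277306 to 1885769 per library. Prps2 ran from 97.9 to 140 in WT, from 199 to 287 in Eμ-Myc and from 16.2 to 18.3 in the knockout group, and Myc from 226 to 346, from 1559 to 2302 and from 1099 to 3282, which are the directions the labels give. Within the knockout group Myc was at 1099, 1718, 3017 and 3282 in libraries 1 to 4, so libraries 3 and 4 were above every Eμ-Myc library. B-cell markers were high throughout: the summed scaled coverage of 7 of them (Cd79a, Cd79b, Ms4a1, Cd22, Blnk, Cd37 and Fcrla) ran from 7847 to 14741 in WT, 8880 to 11402 in Eμ-Myc and 7807 to 9149 in the knockout group. The knockout libraries formed 2 unlike pairs. The SD over genes of the log2 difference between 2 libraries was 0.37 for knockout libraries 1 and 2 and 0.29 for 3 and 4, but 1.11 to 1.30 between a library of one pair and one of the other, against at most 0.70 between libraries of WT and 0.58 of Eμ-Myc. Knockout libraries 3 and 4 also held the least signal of T-cell, NK-cell and myeloid markers, as given below beside Jchain, so fold changes of the 10 genes in the knockout group are given with and without these 2 libraries. Genes of the immunoglobulin constant regions (12 symbols looked for), and with them the antibody transcripts themselves, were not analysed here.

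In WT libraries the 10 genes spanned a wide range of levels. By mean scaled coverage (per gene, so comparable between genes as far as coverage is a value per base) the order was Mzb1 with 303 ± 110, Sec11c with 278 ± 27.9, Jchain with 251 ± 50.8, Xbp1 with 227 ± 66.0, Derl3 with 59.6 ± 14.6, Creld2 with 51.0 ± 2.97, Sdc1 with 8.36 ± 2.87, Fkbp11 with 6.46 ± 1.08, Prdm1 with 4.40 ± 0.985 and Tnfrsf17 with 1.77 ± 0.544 (SD, n = 4). Neighbours in this order overlapped between libraries except at 3 places: Xbp1 lay above Derl3, Creld2 above Sdc1 and Prdm1 above Tnfrsf17 in every library. The plasma cell surface and regulator genes Sdc1, Prdm1 and Tnfrsf17 were among the 4 lowest, together with the ER gene Fkbp11.

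Eμ-Myc was first compared with WT, to see what the Myc transgene changes. Among the 10 genes, those of the ER folding and entry machinery rose with Mzb1 and the receptor gene Tnfrsf17, while the transcription factor genes Prdm1 and Xbp1 fell and Jchain had no called change. By limma with Benjamini-Hochberg adjustment over all genes, 7 of the 10 had an adjusted p under 0.05, 5 higher and 2 lower, where 55.1% of all 12723 genes tested passed, 30.4% higher and 24.7% lower. The members' share is therefore near that of all genes. At an unadjusted p under 0.05 it was also 7 of 10, against 60.7%. The libraries of the 2 groups did not overlap for 6 members, 5 higher and 1 lower, against 51.4% of all genes, 28.7% higher and 22.8% lower. The median log2 fold change of the members was 0.47 and that of all genes -0.01. Scaling by total coverage shifts the median of all genes by -0.18 and, of the genes called, 42.0% are then higher in place of 55.2%. The members' counts were 5 higher and 2 lower under both scalings.

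Fkbp11, a peptidyl-prolyl isomerase of the ER, changed most. It was at 6.51, 7.97, 5.55 and 5.82 in WT libraries 1 to 4 and at 43.9, 75.9, 57.4 and 67.0 in Eμ-Myc. Every Eμ-Myc library lay far above every WT library. The log2 fold change, on the scale log2(scaled coverage + 0.5), was 3.13 (SE 0.19, limma adjusted p 3.16e-06), and the ratio of the means was 9.45.

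Mzb1 was at 240, 428, 357 and 186 in WT libraries 1 to 4 and at 591, 748, 727 and 785 in Eμ-Myc. The groups did not overlap, and the log2 fold change was 1.30 (SE 0.24, limma adjusted p 0.00178). The 2 lowest WT values, in libraries 1 and 4, were in the libraries with the lowest B-cell marker sums of that group, 8062 and 7847, against 14741 and 12179 in WT libraries 2 and 3. The part of this in the result was not tested. By the GENCODE gene annotation a protein-coding gene, SPATA24, overlaps Mzb1 on the same strand. Whether its reads enter the Mzb1 value is not known.

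Creld2 and Sec11c rose by less, with little spread. Creld2, a disulfide isomerase-like protein of the ER, was between 47.5 and 54.3 in WT and between 70.9 and 86.2 in Eμ-Myc, a rise of 0.64 on the log2 scale (SE 0.10, limma adjusted p 4.92e-04). Sec11c was between 249 and 308 in WT and between 339 and 454 in Eμ-Myc, a rise of 0.52 (SE 0.12, adjusted p 0.00481). In both genes the groups did not overlap. Derl3 was at 61.9, 73.3, 64.2 and 38.9 in WT and at 74.2, 58.0, 71.2 and 67.9 in Eμ-Myc. The Derl3 groups overlapped and the change of 0.22 was not called (95% interval -0.20 to 0.63, limma adjusted p 0.345).

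The regulators went the other way. Prdm1 was at 4.79, 3.37, 3.86 and 5.59 in WT and at 2.27, 1.36, 2.16 and 1.46 in Eμ-Myc. All WT libraries were above all Eμ-Myc libraries, and Prdm1 fell by 1.08 on the log2 scale (SE 0.23, limma adjusted p 0.00301). T cells and NK cells also express Prdm1, and in this comparison 9 of 9 T-cell and 8 of 8 NK-cell markers tested were called lower. The 4 WT libraries had the same order of Prdm1 as of the T-cell sums (954, 484, 641 and 2912) and the NK-cell sums (1186, 407, 456 and 1688). In Eμ-Myc the orders differed, with T-cell sums of 156, 135, 152 and 110 and NK-cell sums of 243, 290, 132 and 107. The part of these cells in the fall of Prdm1 was not tested. Xbp1 was at 322, 218, 190 and 177 in WT and at 167, 187, 119 and 132 in Eμ-Myc. Here the lowest WT library lay below the highest Eμ-Myc library, and the log2 fold change was -0.56 (SE 0.21, limma adjusted p 0.0441). The call of Xbp1 was lost without WT library 1 or 2 or Eμ-Myc library 1, 3 or 4 (adjusted p 0.0876, 0.0752, 0.0566, 0.117 and 0.105), and when genes were not filtered (0.0570). With all 12 libraries in one fit, Xbp1 (0.140), Prdm1 (0.112) and Tnfrsf17 (0.118) were not called.

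Of the surface genes, Tnfrsf17 was at 2.12, 1.22, 1.41 and 2.35 in WT and at 3.97, 4.00, 3.60 and 5.75 in Eμ-Myc. These groups did not overlap, though at levels of a few units of coverage. The log2 fold change was 1.10 (SE 0.24, limma adjusted p 0.00344). Sdc1 was at 5.96, 12, 9.32 and 6.15 in WT and at 10.1, 10.01, 10.9 and 12.8 in Eμ-Myc. One WT library was above 3 of the Eμ-Myc libraries, and the change of 0.42 was not called (95% interval -0.10 to 0.94, limma adjusted p 0.145), although it passed without WT library 2 (0.61, adjusted p 0.0362).

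Jchain was at 318, 255, 196 and 234 in WT libraries 1 to 4 and at 196, 199, 212 and 289.5 in Eμ-Myc. The groups overlapped over most of their range, and the log2 fold change was -0.16 (SE 0.17, 95% interval -0.55 to 0.23, limma adjusted p 0.456). Without a called change in Jchain, Mzb1, which also serves IgM assembly, was higher in the same libraries.

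**Figure D1:**
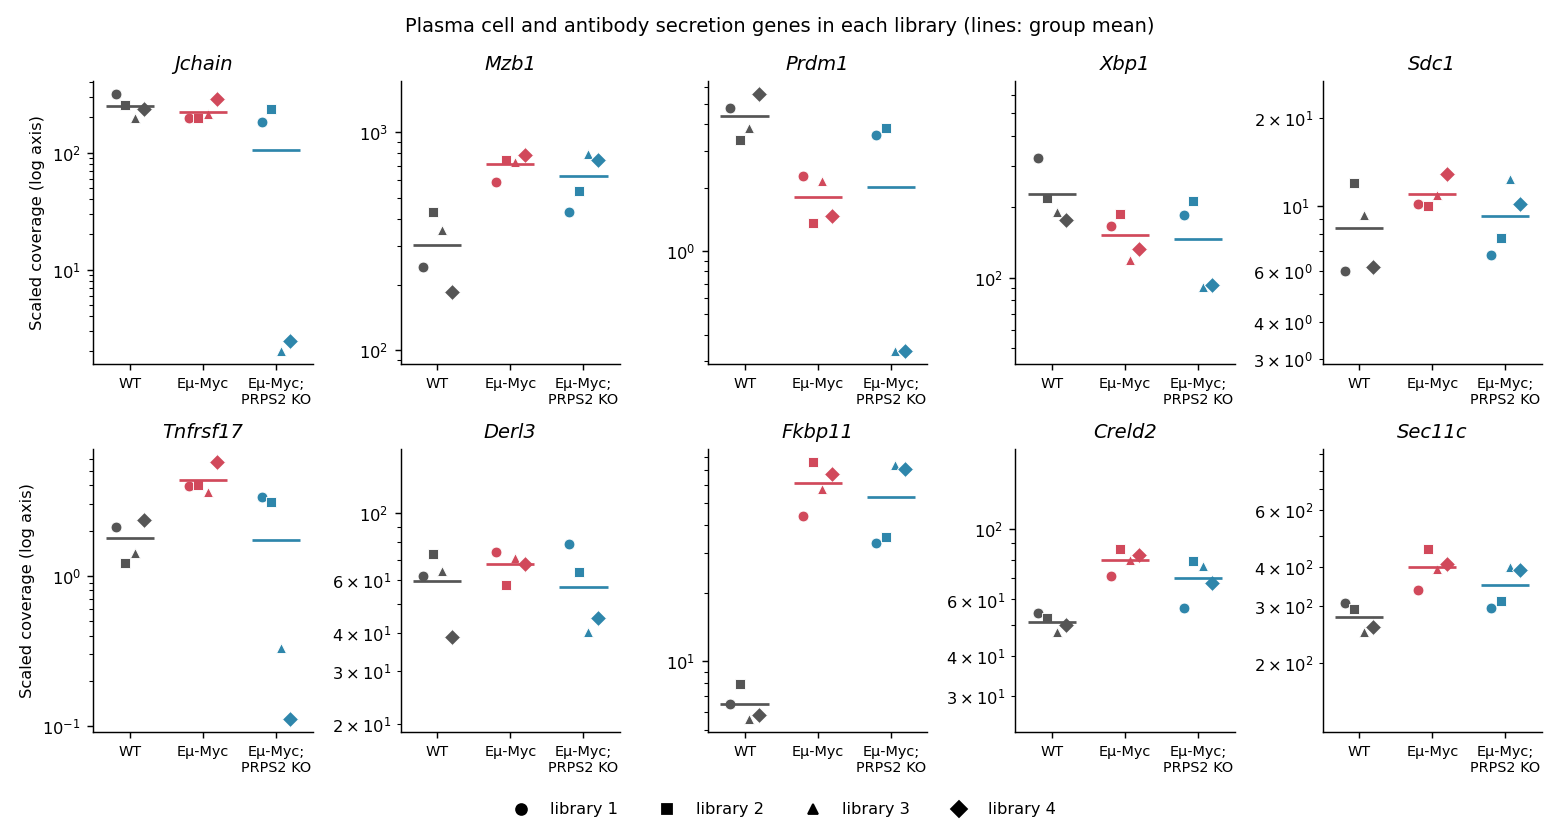
Scaled coverage of the 10 genes in each library on log axes that differ between panels; colours give the 3 groups, symbols the library number and lines the group mean. Fkbp11 lies between 5.55 and 7.97 in WT and between 43.9 and 75.9 in Eμ-Myc, and Jchain in the knockout group splits into libraries at 184 and 234 and libraries at 2.00 and 2.44.

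Knockout and Eμ-Myc libraries were compared next, to see whether these genes depend on PRPS2 in Myc-driven B cells. None of the 10 was called by limma (0 of 10), and 1, Tnfrsf17, had an unadjusted p under 0.05. Over all 12551 genes tested 0.00797% were called, which is Prps2 alone, and 0.964% had an unadjusted p under 0.05. Libraries did not overlap for 1.52% of all genes, 0.757% higher and 0.765% lower, and for 1 member, lower. All 10 fitted changes were below 0, with a median of -0.26 against -0.03 over all genes, and the adjusted p was 1.00 for each. This result rests on a group whose libraries disagreed, and the fits have wide intervals for several members.

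Jchain showed the disagreement most. It was at 184, 234, 2.00 and 2.44 in knockout libraries 1 to 4, that is at 81.9%, 104%, 0.891% and 1.09% of the Eμ-Myc mean. Libraries 1 and 2 lay at about the level of Eμ-Myc, and libraries 3 and 4 lay far below every other library of the series. The log2 fold change was -3.22 (SE 1.56, 95% interval -6.80 to 0.35, limma p 0.0714). Without libraries 3 and 4 it was -0.094 (adjusted p 0.751).

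Prdm1 and Tnfrsf17, both low throughout, split in the same way. Prdm1 was at 3.55, 3.84, 0.333 and 0.333, so libraries 1 and 2 were above all Eμ-Myc libraries and libraries 3 and 4 below them. Its fitted change was -0.29 (95% interval -1.70 to 1.13) and turned to 0.88 without libraries 3 and 4 (limma adjusted p 0.0693). Tnfrsf17 was at 3.35, 3.11, 0.333 and 0.111, all 4 below the lowest Eμ-Myc library. Its log2 fold change was -1.55 (95% interval -2.99 to -0.10, limma p 0.0387, adjusted p 1.00), and -0.35 without libraries 3 and 4 (adjusted p 0.318). Since values are given in steps of 0.1 before scaling, the values at 0.111 and 0.333 are 1 and 3 steps above 0.

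Xbp1 and Derl3 split by less. Xbp1 was at 185, 213, 91.1 and 93.2, and Derl3 at 78.9, 63.9, 40.4 and 44.8. For both genes libraries 3 and 4 were below every Eμ-Myc library. The fitted changes were -0.14 (95% interval -0.86 to 0.59) for Xbp1 and -0.29 (95% interval -0.80 to 0.21) for Derl3, and without libraries 3 and 4 they were 0.41 and 0.07, not called (limma adjusted p 0.176 and 0.759).

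In 4 genes the split ran in the opposite direction, with knockout libraries 3 and 4 above libraries 1 and 2. Mzb1 was at 430, 535, 795 and 745, so libraries 3 and 4 lay within or just above the Eμ-Myc range and libraries 1 and 2 between WT and Eμ-Myc. Fkbp11 was at 33.2, 35.5, 73.4 and 70.2, and Sec11c at 296, 311, 399 and 390. Sdc1 was at 6.80, 7.78, 12.3 and 10.1. The same libraries that nearly lacked Jchain, Prdm1 and Tnfrsf17 were therefore at Eμ-Myc levels of Mzb1, Fkbp11 and Sec11c. Creld2, at 56.5, 79.1, 76.2 and 67.8, followed neither pattern. The fitted changes against Eμ-Myc were between -0.27 and -0.20 for these 5 genes, with 95% intervals of -0.72 to 0.27 for Mzb1, -0.98 to 0.45 for Fkbp11, -0.55 to 0.15 for Sec11c, -0.74 to 0.22 for Sdc1 and -0.51 to 0.11 for Creld2. Without libraries 3 and 4 they were -0.56 for Mzb1, -0.79 for Fkbp11, -0.39 for Sec11c, -0.55 for Sdc1 and -0.25 for Creld2, none called (limma adjusted p 0.0644, 0.0595, 0.112, 0.0860 and 0.299).

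**Figure D2:**
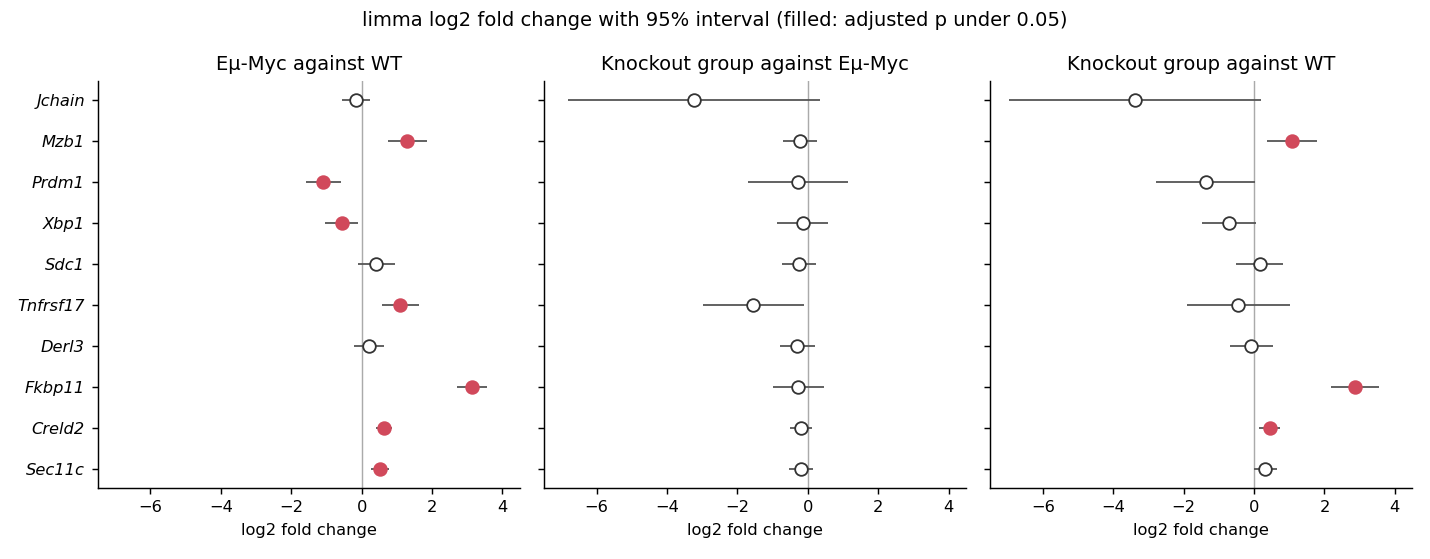
Log2 fold change of each gene in the 3 comparisons (points) with its 95% interval (lines); filled points had a limma adjusted p under 0.05. Filled points number 7 for Eμ-Myc against WT, 0 for knockout against Eμ-Myc and 3 for knockout against WT, and the interval of Jchain is the widest in both comparisons of the knockout group.

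Markers of other cell types were compared beside these values, because spleen isolates can hold them. Fewer cells of a type and less RNA per cell cannot be told apart in bulk samples. The summed T-cell markers (9 of the 10 genes of that list, Trac was not analysed here) were between 484 and 2912 in WT, between 110 and 156 in Eμ-Myc, and at 625, 695, 22.2 and 19.0 in knockout libraries 1 to 4. The sums of 8 NK-cell markers were 407 to 1688, 107 to 290, and 652, 503, 26.3 and 23.7 in the same order, and those of 10 myeloid markers 9295 to 26064, 6162 to 17943, and 16837, 12483, 3310 and 1697. Knockout libraries 3 and 4 thus held the least of all 3 cell types. The defining gene Cd3e was at 0.555 and 0.666 there, and Ncr1 at 1.44 and 2.00.

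The T-cell sum was at most 156 in Eμ-Myc, where Jchain ran from 196 to 289.5, and at least 625 in knockout libraries 1 and 2, where Jchain was at 184 and 234. The 10 markers of marginal zone and B1 B cells, which are B cells themselves, summed to 640 to 685 in WT, 218 to 329 in Eμ-Myc and 455, 377, 161 and 151 in the knockout libraries. Cr2, the complement receptor that marks marginal zone B cells, was at 66.0, 61.9, 0.111 and 0.333 in knockout libraries 1 to 4, while Zbtb32 and Bhlhe41 of the same list were not low (48.0 and 46.2, 45.2 and 38.3 in libraries 3 and 4). The 10 markers of plasmacytoid dendritic cells, which also express Jchain, summed to 394 to 540 in WT, 258 to 385 in Eμ-Myc and 442, 377, 255 and 242 in the knockout libraries, of which Siglech, the defining gene, was at 17.7, 14.9, 0.999 and 0.333. Bst2, which makes up most of the sum in libraries 3 and 4 and is expressed in other cells too, was at 141, 160, 218 and 205, and Cox6a2 at 6.30, 6.22, 5.22 and 4.99. The part of these cell types in the values of Jchain, Prdm1, Tnfrsf17, Xbp1 and Derl3 was not tested. The sums of 8 erythroid markers ran the other way within the knockout group, at 101, 89.0, 127 and 133 in libraries 1 to 4, against 77.7 to 849 in WT and 87.7 to 519 in Eμ-Myc. Those of 6 platelet markers were 165, 48.9, 42.5 and 50.6, against 107 to 480 and 87.2 to 188.

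**Figure D3:**
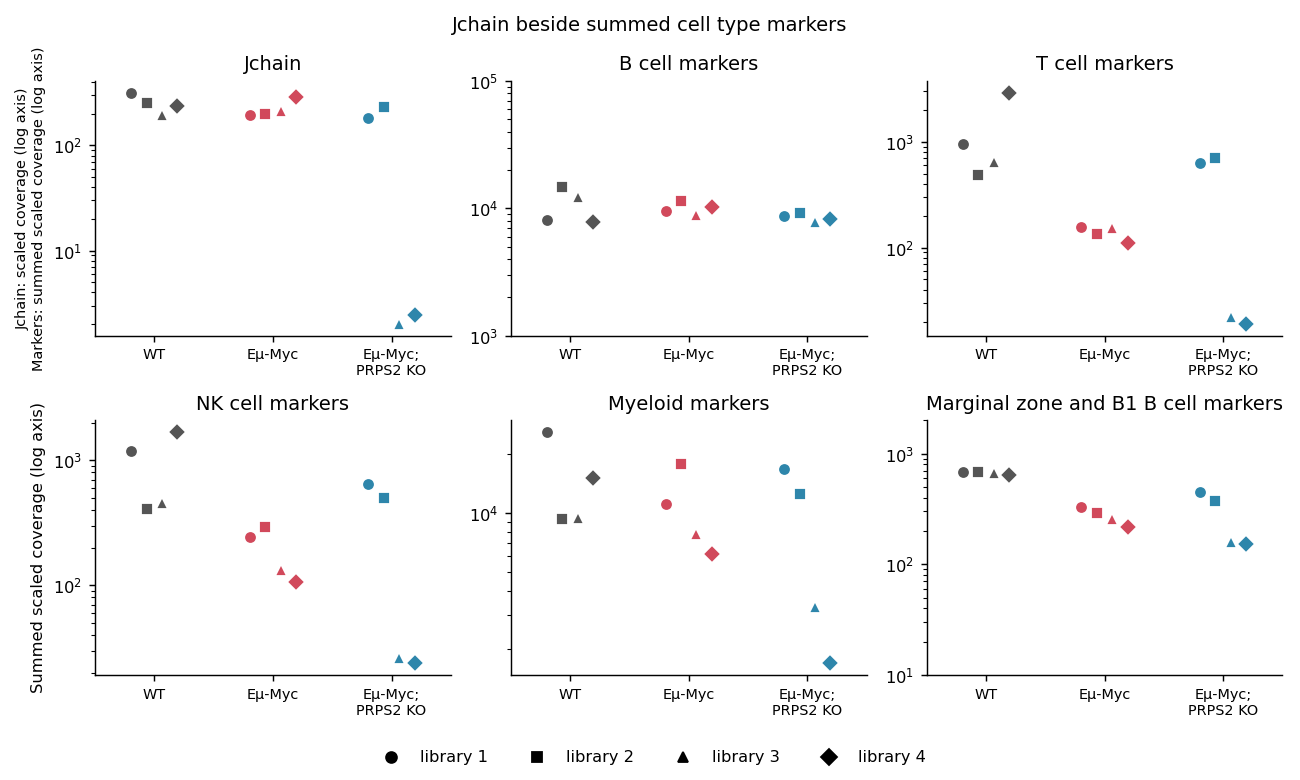
Jchain (scaled coverage) and the summed scaled coverage of marker lists in each library on log axes; colours give the group and symbols the library number. Knockout libraries 3 and 4 have the lowest Jchain, T-cell, NK-cell and myeloid values of the 12 libraries, while their B-cell sums of 7807 and 8183 lie beside those of WT libraries 4 and 1, at 7847 and 8062.

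Finally, knockout libraries were compared with WT, a contrast that carries both the transgene and the loss of PRPS2. Fkbp11, Mzb1 and Creld2 were called by limma, all higher, so 3 of 10 members passed where 29.3% of 12692 genes did, 19.7% higher and 9.6% lower, and 50% had an unadjusted p under 0.05 beside 3 members. The log2 fold change was 2.86 for Fkbp11 (SE 0.30, limma adjusted p 0.00780), 1.08 for Mzb1 (SE 0.31, adjusted p 0.0374) and 0.44 for Creld2 (SE 0.13, adjusted p 0.0430). For all 3 genes the 4 knockout libraries lay above the 4 WT libraries, the lowest Fkbp11 value being 33.2 against a highest WT value of 7.97. Among all genes 37.1% did not overlap, 22.2% higher and 14.8% lower. This comparison and that of Eμ-Myc with WT share the 4 WT libraries, so they are not independent. The median change of the members was 0.04, against -0.01 over all genes.

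Fkbp11 was called in each setting tried, also without knockout libraries 3 and 4 (2.33, adjusted p 0.00465), though a filter of 10 in every library leaves it out. Neither Mzb1 nor Creld2 was called once knockout library 3 or 4, or any 1 WT library, was left out, and Creld2 was not called without knockout library 2 or with scaling by total coverage (0.29, adjusted p 0.0898). Without both knockout libraries 3 and 4 Mzb1 was at 0.74 (adjusted p 0.233) and Creld2 at 0.39 (adjusted p 0.171). Jchain, at -3.38 (SE 1.56, 95% interval -6.95 to 0.19, adjusted p 0.113), passed only when knockout library 1 (-4.37, adjusted p 0.0417) or library 2 (-4.48, adjusted p 0.0474) was left out. Prdm1 at -1.37 (adjusted p 0.107) and Sec11c at 0.32 (adjusted p 0.108) were not called, and passed only without knockout library 1 (Prdm1 -1.74, adjusted p 0.0416; Sec11c 0.40, adjusted p 0.0490). Xbp1 (-0.70, adjusted p 0.121), Tnfrsf17 (-0.45, adjusted p 0.576), Derl3 (-0.08, adjusted p 0.822) and Sdc1 (0.16, adjusted p 0.658) were not called. Without both knockout libraries 3 and 4 the values were -0.25 for Jchain, -0.20 for Prdm1, -0.15 for Xbp1, 0.13 for Sec11c, 0.74 for Tnfrsf17, 0.29 for Derl3 and -0.13 for Sdc1, none called (limma adjusted p 0.168 to 0.831).

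Jchain was then set against Mzb1 within each library, since a difference within a library does not depend on the scaling beyond the pseudocount. The log2 difference, Jchain minus Mzb1, was 0.40, -0.75, -0.86 and 0.34 in WT libraries 1 to 4. Jchain was thus above Mzb1 in 2 WT libraries and below it in the other 2. The 2 where it was above had B-cell marker sums of 8062 and 7847, against 14741 and 12179 in the other 2. The part of B-cell content in this difference was not tested. The difference was -1.59, -1.91, -1.78 and -1.44 in Eμ-Myc, where Mzb1 exceeded Jchain in every library. In the knockout group it was -1.22, -1.19, -8.32 and -7.99. Eμ-Myc was below WT without overlap, with means of -1.68 ± 0.21 and -0.22 ± 0.68 and a difference of -1.46 (exact two-sided permutation test, p = 0.0286, the smallest that 70 arrangements can give; 0.0429 after Benjamini-Hochberg adjustment over 3 comparisons).

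The knockout group also lay below WT in every library, with a difference of -4.46 (exact permutation p 0.0286, adjusted 0.0429). Against Eμ-Myc the difference was -3.00 (exact permutation p 0.429, adjusted 0.429), with libraries 1 and 2 above and libraries 3 and 4 below all 4 Eμ-Myc libraries. Without libraries 3 and 4 the difference from Eμ-Myc was 0.47 and that from WT -0.99 (exact permutation, adjusted p 0.133 for both; the smallest p that the 15 arrangements of 2 against 4 libraries can give is 0.0667, so this test could not pass). The coverage of Jchain was 1.32, 0.595, 0.549 and 1.26 times that of Mzb1 in WT, 0.332, 0.266, 0.292 and 0.369 times in Eμ-Myc, and 0.427, 0.437, 0.00251 and 0.00328 times in the knockout group. The gap in Eμ-Myc came with a higher Mzb1 and a similar Jchain, and the gap in knockout libraries 3 and 4 with a Jchain near 0.

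**Figure D4:**
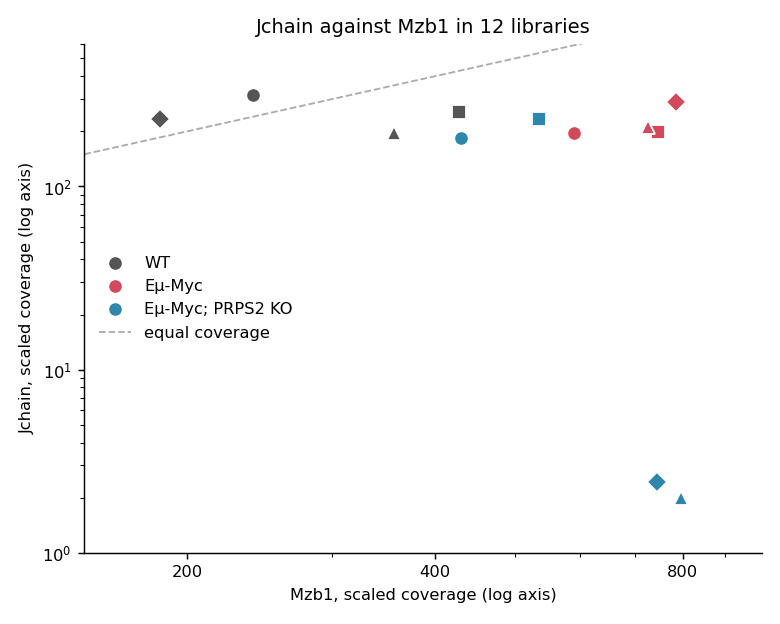
Scaled coverage of Jchain against Mzb1 on log axes, 1 point per library; colours give the group, symbols the library (circle 1, square 2, triangle 3, diamond 4) and the dashed line equal coverage. Jchain lies between 184 and 318 in 10 libraries while Mzb1 ranges from 186 to 785, and knockout libraries 3 and 4 lie at 2.00 and 2.44 with Mzb1 at 795 and 745.

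The genes with the profile most like Jchain over the 12 libraries were Il9r, a cytokine receptor, Ltb (lymphotoxin beta) and Fcrl5, an Fc receptor-like protein of B cells. Likeness was the root mean square difference between centred log2 profiles, which was 0.67, 0.85 and 0.98 among 9909 genes with a mean of at least 8, beside 2.40 for the Jchain profile itself around its mean. In knockout libraries 1 to 4 Il9r was at 59.7, 75.3, 0.555 and 0.333, Ltb at 444, 427, 7.88 and 6.32, and Fcrl5 at 19.1, 15.9, 0.222 and 0.333. The likeness rests on the gap between these library pairs. The mean of each of the 3 was lower in Eμ-Myc than in WT, at 28.1 ± 7.57 against 50.8 ± 12.3 for Il9r, 243 ± 61.2 against 934 ± 186 for Ltb and 11.6 ± 3.55 against 38.4 ± 12.9 for Fcrl5 (SD, n = 4). The genes most like Mzb1 were Tcf3, the B-lineage transcription factor E2A, BC035044 and Hmgn1, a nucleosome-binding protein, at 0.16, 0.17 and 0.18 beside 0.67 for Mzb1 itself. Tcf3 was at 1121 ± 257 in WT, 2452 ± 139 in Eμ-Myc (SD, n = 4), and at 2303 ± 581 in knockout libraries.

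Relatives of the members in the same machinery, named here for that reason and after their values were seen, did not all follow them. In Eμ-Myc against WT Creld2 rose while Creld1 fell (-0.64, SE 0.14, limma adjusted p 0.00427). Derl3 had no called change, Derl1 fell (-0.30, SE 0.09, adjusted p 0.0171, but 0.0639 without Eμ-Myc library 4) and Derl2 was not called (-0.11, adjusted p 0.377), though it was with scaling by total coverage (-0.29, adjusted p 0.0229). Fkbp2, another ER isomerase, rose as Fkbp11 did but from 246 ± 37.0 to 442 ± 108 (0.82, SE 0.17, adjusted p 0.00290). Sec11a, the other catalytic subunit of the signal peptidase, was at 125 ± 24.3 in WT and 159 ± 18.0 in Eμ-Myc and was not called (0.36, adjusted p 0.0613), though it was without WT library 4 (0.48, adjusted p 0.0101). Tnfrsf13b (TACI), a receptor for the ligands that also bind Tnfrsf17, was not called either (-0.48, adjusted p 0.122), but was without WT library 1 (-0.65, adjusted p 0.0365). Differences between relatives were not tested.

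The wider secretory pathway was described with lists of genes. Of 21 genes for entry into the ER (signal peptidase, translocon and signal recognition particle), 14 were called in Eμ-Myc against WT and all 14 were higher, with a median log2 fold change of 0.42 against -0.01 over all genes. Srp19 and Ssr2 rose most, by 1.03 and 0.99 on the log2 scale (limma adjusted p 8.24e-05 and 1.1e-04). Of 27 targets of XBP1 and the unfolded protein response, 17 were called, 13 higher and 4 lower, with a median of 0.29, where 55.1% of all genes were called, 30.4% higher and 24.7% lower. The co-chaperone gene Sdf2l1 and the cargo receptor gene Lman1 rose most, by 1.21 and 1.09 (adjusted p 4.15e-05 and 2.15e-04), while Ero1lb, an oxidase for disulfide bonds, and Edem1, which acts in ER degradation, fell most (-0.85 and -0.69, adjusted p 0.00313 and 9.8e-04). With scaling by total coverage 8 of the 21 ER entry genes were called, where 57.4% of all genes were. Ero1lb was not called with all 12 libraries in one fit (adjusted p 0.0632).

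Other regulators of the plasma cell divided in the same comparison, 4 of 8 being called. This share, the 7 of 10 markers and the 4 of 10 B-cell factors given next stand beside 55.1% of all genes called. Bhlha15 (Mist1), a secretory-cell factor, rose from 1.52 ± 0.245 to 5.36 ± 1.29 (1.52, SE 0.21, limma adjusted p 2.81e-04), and Pou2af1, a coactivator of the octamer factors, rose by 0.80 on the log2 scale (adjusted p 0.00503). Zbtb20 and Ell2, an elongation factor needed for secretory immunoglobulin mRNA, fell (-1.10 and -1.04, adjusted p 0.00111 and 0.00218). Of 12 further plasma cell markers 10 were tested and 7 called, 2 higher (Slamf7 at 1.22, adjusted p 2.99e-04, and Eaf2 at 0.60, adjusted p 0.0174) and 5 lower. The largest falls were Ly6c1 (-3.25, adjusted p 0.00229) and Cd28 (-3.02, adjusted p 0.00117), which T cells also express and which were highest in WT library 4, the library with the highest T-cell sum of 2912. Among 10 factors of B-cell identity 4 were called and all 4 were lower, led by Bcl6 (-2.10, adjusted p 2.44e-04) and Ciita (-1.06, adjusted p 0.0106). With all 12 libraries in one fit 1 of the 10 B-cell factors was called, where 42.9% of all genes were, and neither Bcl6 (adjusted p 0.0568), Ciita (0.0566) nor Ell2 (0.0587) was. Eaf2 was not called with scaling by total coverage (0.42, adjusted p 0.0724). Pax5 (-0.11, adjusted p 0.744) and Bach2 (-0.09, adjusted p 0.753), which hold back the plasma cell fate and are named here after their values were seen, were not called.

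In the knockout group against Eμ-Myc none of these lists held a called gene (limma). The counts were 0 of 8 regulators, 0 of 10 markers, 0 of 10 B-cell factors, 0 of 21 ER entry genes and 0 of 27 XBP1 and unfolded protein response targets. Each list also held 0 genes at an unadjusted p under 0.05. Over all genes tested 0.00797% were called and 0.964% had an unadjusted p under 0.05, so these counts are near the share of all genes. In the knockout group against WT, where 29.3% of all genes were called and 19.7% were higher, 3 of 8 regulators were called, Bhlha15 higher (1.96, adjusted p 0.0221) and Ell2 (-1.46, adjusted p 0.0471) and Zbtb20 (-1.43, adjusted p 0.0387) lower. Bhlha15 was at 3.15, 5.29, 13.9 and 11.8 in knockout libraries 1 to 4, so its highest values stood in the libraries with the lowest Prdm1 and Jchain. The other lists held 2 of 10 called markers (Slamf7 higher at 1.24, adjusted p 0.0119, and Ly6c1 lower at -2.53, adjusted p 0.0421) and 0 of 10 B-cell factors, of which 4 had an unadjusted p under 0.05, against 50% of all genes. Of the ER entry genes 5 of 21 were called, all higher, led by Srp19 (0.91, adjusted p 0.0465) and Ssr2 (0.85, adjusted p 0.0320). Of the XBP1 and unfolded protein response targets 13 of 27 were called, 10 higher, led by Lman1 (1.29, adjusted p 0.0119) and Sdf2l1 (1.15, adjusted p 0.0119), and 3 lower, led by Ero1lb (-1.23, adjusted p 0.0493) and Creld1 (-0.83, adjusted p 0.0303).

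These counts against WT moved with those of all genes when libraries were left out. Without knockout library 3, without knockout library 4, or without any 1 WT library, 0 of the 8 regulators and 0 of the 21 ER entry genes were called, and 2 or 3 of the 27 targets, where between 4.78% and 10.01% of all genes were called. Without knockout library 1 the counts were 12 of 21 ER entry genes and 5 of 10 B-cell factors, where 53.2% of all genes were called. Without both knockout libraries 3 and 4, 1 regulator, 0 ER entry genes and 3 targets were called against WT, where 10.6% of all genes were. The values were then 1.20 for Bhlha15, 0.93 for Slamf7, 0.88 for Lman1 and 0.83 for Sdf2l1, still called (limma adjusted p 0.0428, 0.0248, 0.0101 and 0.0186). They were -0.60 for Ell2, -0.68 for Zbtb20, -1.71 for Ly6c1, 0.38 for Srp19, 0.45 for Ssr2, -0.51 for Ero1lb and -0.50 for Creld1, none called (adjusted p 0.0671 to 0.295).

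Against Eμ-Myc without both libraries 3 and 4, 2 of the 10 plasma cell markers were called, where 4.21% of all genes were. These were Cd28 (2.36, limma adjusted p 0.00481) and Cxcr3 (1.44, adjusted p 0.0371), named after their values were seen. T cells also express both, and the T-cell sum was 625 and 695 in knockout libraries 1 and 2 against at most 156 in Eμ-Myc. Its part in this result was not tested.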

How the data were processed

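RNA-seq of 12 libraries was analysed, 4 in each of 3 groups, grouped by the labels. The deposited files give 1 coverage signal per gene symbol and library, in steps of 0.1; 91.6% of the values above 0 were not whole (tolerance 0.001), so no count test was used. Per the submitters' processing notes, mm10, DESeq and R 4.3.3 were involved, in roles not stated; the aligner, the counting step and the annotation are not given in the sources used here. Per the labels, libraries were made from poly(A) RNA and keep strand.

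Coverage was scaled by a trimmed mean of log ratios over the 12 libraries, trimming 30% of the ratios and 5% of the levels, computed without weights. Each comparison used its own 8 libraries and the genes reaching a scaled coverage of 1 in 4 or more of them, tested with limma 3.58.1 (trend and robust options, R 4.3.3) on log2(scaled coverage + 0.5), with Benjamini-Hochberg adjustment over all genes tested and a threshold of 0.05. All fold changes are on that scale, which understates the change of low genes. All 10 members passed the filter in each comparison. The Jchain to Mzb1 difference was tested by exact two-sided permutation, listing all arrangements (Python 3.11.15 with NumPy 2.4.6). The scripts were tested on simulated data.

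Named genes were the 10 members, the 2 largest rises and 2 largest falls among the called genes of each other list, and the 3 most similar profiles to Jchain and Mzb1. Single cell type markers and relatives of the members were named after their values were seen. The members and lists were chosen with earlier results of these data known. Same-numbered knockout and Eμ-Myc libraries deviated together from their group means (r 0.638, 0.187, 0.243 and 0.596 for numbers 1 to 4), which met the rule of r over 0.1 in every pair, so they were also fitted as pairs. Knockout libraries 2 and 3 correlated more with Eμ-Myc libraries 1 (0.581) and 4 (0.587) than with their own numbers. The alternatives tried were 2 other scalings, pseudocounts of 0.1 and 2, testing all genes, requiring 10 in every library, 1 fit of all 12 libraries, a replicate block, and leaving out each library. Leaving out knockout libraries 3 and 4 together was chosen after seeing the data. The files do not say that replicates were separate mice beyond the label, so p-values measure the spread between these libraries. In all, 1 B-cell marker of the list is not reported here.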

Additional observations from a re-analysis of the deposited data

Results flagged for a closer look

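Jchain in Eμ-Myc library 4, at 289.5, stood apart from the other 3 Eμ-Myc libraries, which lay between 196 and 212. Its gap to the nearest of them, as a share of the group's range, was just above the critical value of 0.829 of Dixon's test for 4 samples. This was 1 of 33 such groups tested, and chance flags about 1 in 20.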

How the results depend on the processing

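In Eμ-Myc against WT 7 members were called, and 4 with a filter of 10 in every library (6 members left to test), 4 with all 12 libraries in one fit, and 6 to 7 without 1 library, where 59.3%, 42.9% and 46.0% to 54.7% of all genes passed. For knockout against WT 3 members were called, and 1 to 6 without 1 library, 1 without both knockout libraries 3 and 4, and 1 with the replicate block. In these settings 4.78% to 53.2%, 10.6% and 14.7% of all genes were called. Against Eμ-Myc it was 0 in each setting, the block included, while over all genes 524 were called without both libraries 3 and 4.

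The Jchain minus Mzb1 difference with the replicate block was -1.46 for Eμ-Myc and -4.46 for the knockout group against WT (adjusted p 0.188 for both by exact sign flips, whose smallest p of 0.125 cannot pass). It ran from -1.67 to -1.25 and from -5.62 to -3.25 without 1 library. Without both libraries 3 and 4 it was 0.47 against Eμ-Myc, the sign reversed, and -0.99 against WT. Same-numbered libraries shared only a number with WT (r 0.225, -0.0978, 0.251 and 0.128 for Eμ-Myc; 0.391, -0.408, 0.136 and -0.0624 for the knockout group), and the block left 7 members and 56.5% of all genes called in Eμ-Myc against WT.

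Uncalled fold changes that turned sign against Eμ-Myc were Prdm1 (-0.69 to 0.10 without 1 library, 0.88 without both knockout libraries 3 and 4), Xbp1 (-0.36 to 0.051, and 0.41 without both), Sec11a (-0.17 to 0.053 without 1 library), and Derl3 (0.072), Creld1 (0.14) and Derl1 (0.032) without both. Against WT, those of the same genes that turned were Sdc1 (-0.13 without both), Tnfrsf17 (-0.86 to 0.024, and 0.74 without both) and Derl3 (-0.27 to 0.069, and 0.29 without both). In the other lists, genes also turned sign against Eμ-Myc without both. Bcl6 went from -0.72 to 1.15, Ciita from -0.17 to 0.61, Ell2 from -0.43 to 0.44 and Zbtb20 from -0.33 to 0.42. Ero1lb (-0.38 to 0.34) and Edem1 (-0.07 to 0.38) did too. Bhlha15 (0.44 to -0.33), Lman1 (0.20 to -0.21) and Slamf7 (0.02 to -0.30) went the other way. Cxcr3 went from -0.27 to 1.44 and was then called. The causes were not tested. Read depth is unknown, which limits most the genes at a few units of coverage, Prdm1 and Tnfrsf17.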
